A study of Mus musculus with 6 samples.

Results

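The genes described here are the semaphorins, ephrins, Slits and netrins of the mouse and the receptors that bind them. They were chosen by symbol from the deposited count table and numbered 68 of 41388 genes. No measured value enters that rule, but earlier results of these data were known when it was made. These were 20 semaphorins, 9 plexins, 2 neuropilins, 5 ephrins of the A class, 3 ephrins of the B class, 9 EphA and 5 EphB receptors, 3 Slits, 4 Robo receptors, 4 netrins and 4 Unc5 receptors. The cells were primary fibro-adipogenic progenitors, stromal cells of muscle able to form fibroblasts or fat cells, from wild-type (wt) male mice. All cultures grew in serum with added fibroblast growth factor, and received vehicle or 500 nM prostaglandin E2 (PGE2) daily for 2 days. Polyadenylated RNA was sequenced from 3 libraries per group, and the single comparison asks how the cells' transcripts respond to PGE2. The labels give no mouse age and do not say whether the libraries came from separate mice, so p-values measure only the spread between these libraries, which may be technical.

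These families were first known as cues that steer growing axons, and they act in many other tissues. Semaphorins signal through plexins, and the secreted class 3 members mostly need a neuropilin as co-receptor. Ephrins are held on the cell surface and bind Eph receptor tyrosine kinases on the neighbouring cell, so that both cells can receive a signal. Slits are secreted ligands of Robo receptors, and netrins are laminin-like secreted proteins whose receptors include the Unc5 family, Dcc and neogenin. In muscle such cues are known for roles in innervation, vessel growth and cell positioning.

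The libraries held from 21006044 to 52730962 counts. Levels are given as CPM, the count relative to the library's scaled total, and 3 counts amount to 0.0582 to 0.142 CPM at these depths. The progenitor marker Pdgfra was at 1122 to 1455 CPM in all 6 libraries. Of the 8 progenitor markers Ly6a, Thy1 and Pi16 rose and Cd34 and Lum fell when same-numbered libraries were treated as pairs, a fit described below. Some genes that define other cell types were at or near 0. The endothelial gene Pecam1 was at most at 0.254 CPM, and Cldn5, the Schwann cell regulator Sox10, the leukocyte gene Ptprc and the neuronal gene Rbfox3 had 0 counts throughout. Other genes of these lists were measured, among them endothelial Tek (14.9 to 39.7 CPM), pericyte Notch3 (28.9 to 58.8 CPM) and Cspg4 (14.03 to 46.4 CPM), and neuronal Tubb3 (55.3 to 106 CPM).

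Markers of several cell types moved with PGE2 in that fit, which called 7.51% of all genes lower and 6.91% higher. Of 6 pericyte and mural markers 3 fell (Rgs5, Cspg4 and Notch3), and the summed level of all 6 was 70.8 to 119 CPM in vehicle and 54.1 to 85.5 CPM in PGE2 libraries. Of these only Cspg4 also passed with the length correction used below. Mcam (0.24), Kcnj8 (0.54) and Myh11 (0.31) were above 0 and did not pass. Of 3 tested Schwann markers S100b (-0.63) and Cdh19 (-1.06) fell, both also with the length correction used below, with sums of 6.91 to 8.09 and 4.24 to 5.098 CPM that did not overlap. Endothelial Tek and tendon Thbs4 fell, each as 1 of 4 tested in its list, with sums of 21.2 to 46.9 and 18.97 to 33.2 CPM (endothelial) and 12.1 to 25.6 and 10.8 to 21.0 CPM (tendon). The other tested tendon genes, Tnmd (0.56), Mkx (0.03) and Scx (-0.08), did not pass and did not share a direction. Endothelial Cdh5 (-0.43), Kdr (-0.32) and Emcn (-0.37) were below 0 and did not pass. Leukocyte Csf1r and Cd14 rose (sums 8.52 to 9.11 and 11.5 to 12.2 CPM). Csf1r had only 15 to 89 counts per library, and Cd14 did not pass with the length correction (edgeR adjusted p = 0.0684). The other tested leukocyte gene, Cd68 (0.10), did not pass. Neuronal Tubb3 rose also without the block (edgeR adjusted p = 0.029). The other tested neuronal genes, Snap25 (-0.55) and Stmn2 (-0.67), were below 0 and did not pass. Neuronal sums of 57.5 to 66.7 and 99.3 to 108 CPM were thus mostly Tubb3. Myogenic markers fell too and are given with the class 3 semaphorins. The part of these cell types in the members' values was not tested. In bulk RNA fewer cells of a type and less RNA per cell cannot be told apart.

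Of the 68 members, 61 passed the filter on low counts and were tested. The other 7 were Epha6, Epha8, Epha10, Ntn5, Plxnb3, Robo4 and Sema5b, each with at most 6 counts in any library. Levels between genes are compared as CPM per kb of merged exons. On that scale 15 members lay above 10, 22 between 1 and 10, and 24 at or below 1. The most abundant was the plexin gene Plxnb2, a semaphorin 4 receptor, at 65.5 CPM per kb in vehicle and 52.4 in PGE2 libraries. Next came the secreted ligand Slit3, at 40.0 and 46.7, and the membrane ligand ephrin B1 (Efnb1), at 36.0 and 36.6 CPM per kb. Plxna1 (31.8 and 26.8) and its co-receptor neuropilin 1 (Nrp1, 28.3 and 29.99) followed. This order rests on merged exon length, which for Nrp1 is 9785 bases against a longest transcript of 3645 (Plxnb2: 7720 and 6497). Another measure of length could give another order. Ephb4, a receptor of B ephrins, was at 21.65 and 21.3 CPM per kb. Robo1, the most abundant Slit receptor, was at 2.33 and 1.63 CPM per kb, below Slit3 and Slit2 (7.26 and 6.30) and above Slit1 (0.122 and 0.104).

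**Figure D1:**
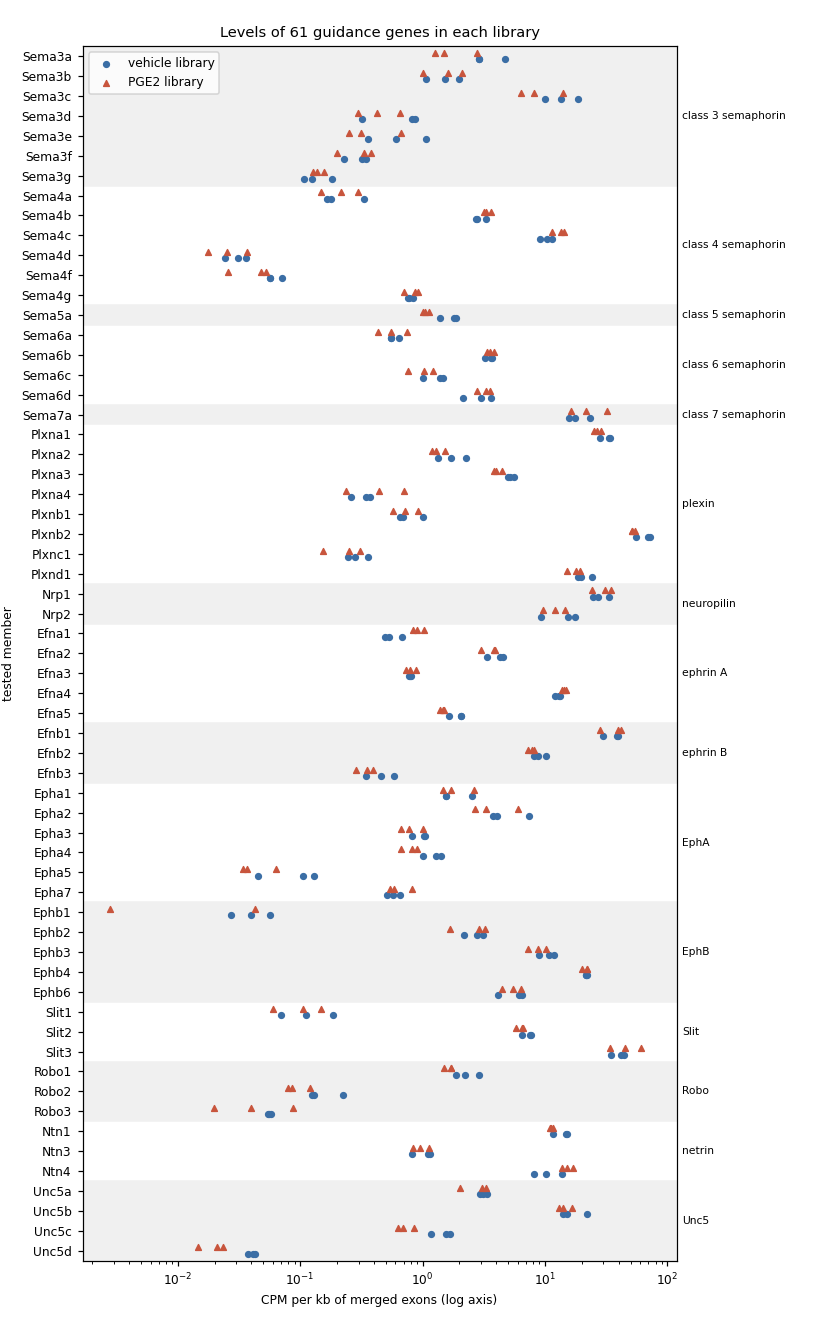
Level of each of the 61 tested members in CPM per kb of merged exons (log axis), with circles for the 3 vehicle and triangles for the 3 PGE2 libraries and shading by subfamily. Plxnb2, Slit3 and Efnb1 lie highest; the PGE2 library of Ephb1 with 0 counts cannot be drawn on a log axis.

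None of the 61 members passed the comparison of PGE2 with vehicle when the replicate number was left out of the model (edgeR quasi-likelihood test, Benjamini-Hochberg threshold 0.05 over all 15186 tested genes). Over all genes that fit called 0.132% lower and 0.211% higher. At an unadjusted p under 0.05 there were 16 members, 13 lower and 3 higher, or 21.3% and 4.92%, against 10.1% and 9.99% of all genes. DESeq2 called 6 members lower and none higher (all genes: 3.27% lower, 2.86% higher), and limma-voom called none. All PGE2 libraries lay below all vehicle libraries for 11 members (18%, against 12.2% of all genes) and above for Efna1 and Efna4 (3.28%, against 13.7%).

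Deviations from group means correlated at 0.621, 0.169 and 0.422 between same-numbered libraries 1 to 3, so the numbers were taken to pair them. The labels do not give this pairing, and PGE2 library 2 correlated more with vehicle library 3 (0.252). Calls with the number as a block therefore rest on a choice made from these same data. Within pairs, 28 members were lower in PGE2 in all 3 (45.9%, against 25.5% of all genes) and 6 were higher in all 3 (9.84%, against 26.6%). The fit with the number as a block, called the paired fit below, called 12 members lower and 2 higher, or 19.7% and 3.28%, against 7.51% and 6.91% of all genes. The members that fell were the semaphorins Sema3a, Sema3c, Sema3e and Sema5a, the plexins Plxna2, Plxna3 and Plxnb2, and the receptors Epha2, Epha4, Epha5, Robo1 and Unc5c. The 2 that rose were the netrin Ntn4 and the semaphorin Sema4c. Of these 14, 7 passed whichever pair was left out: Sema3a, Sema3c, Sema3e, Sema5a, Epha4, Unc5c and Ntn4. Those fits reuse the remaining libraries and the same pairing, so they are no independent support. The paired fit of all libraries leaves 2 residual degrees of freedom, and a fit without a pair leaves fewer. Without pair 1 the paired fit called 8 members lower and 4 higher (all genes: 4.67% and 4.44%), and without pair 2 it called 7 and 1 (4.38% and 3.19%). Without pair 3 it called 26 and 2, while the shares of all genes also rose, to 17.7% and 15.6%.

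**Figure D2:**
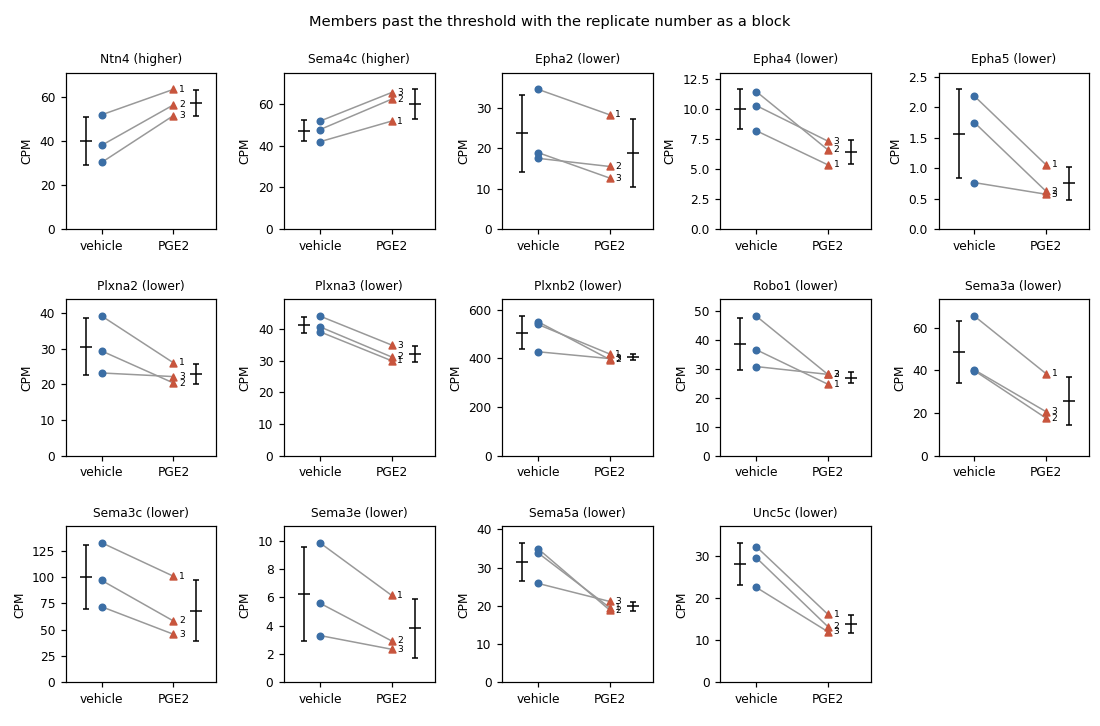
CPM of the 14 members that passed in the paired fit, in each library (circles vehicle, triangles PGE2, grey lines joining libraries of the same number, black bars mean ± SD of 3). Ntn4 and Sema4c rise along every line and the other 12 genes fall along every line, while the groups overlap for Epha2, Epha5, Ntn4, Plxna2, Sema3c, Sema3e and Sema4c.

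Fold changes over all genes followed transcript length, and these families have long transcripts, with a median longest transcript of 5095 bases against 3200 for all genes with a known length. Across the 61 members, length and log2 fold change had a rank correlation of -0.491, and across 15099 tested genes it was -0.408, genes not being independent replicates. The slope of the within-pair log2 difference per doubling of length was -0.139, -0.183 and -0.00629 in pairs 1 to 3, so that pair 3 showed almost none of it. The median log2 fold change of the members was -0.21, beside -0.001 for all genes, and it was -0.08 after a length correction. With that correction and no block 0 members passed (all genes: 0.0395% lower, 0.0593% higher). Block and correction together called 9 members lower and 5 higher, or 14.8% and 8.2%, against 7.96% and 8.79% of all genes. Of the 14 members named above 11 passed again. The plexins Plxna2, Plxna3 and Plxnb2 no longer did, and Plxna4, Sema7a and Slit3 passed as higher there and not in the paired fit without the correction. The part of length in the fold changes of single members was not tested.

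**Figure D3:**
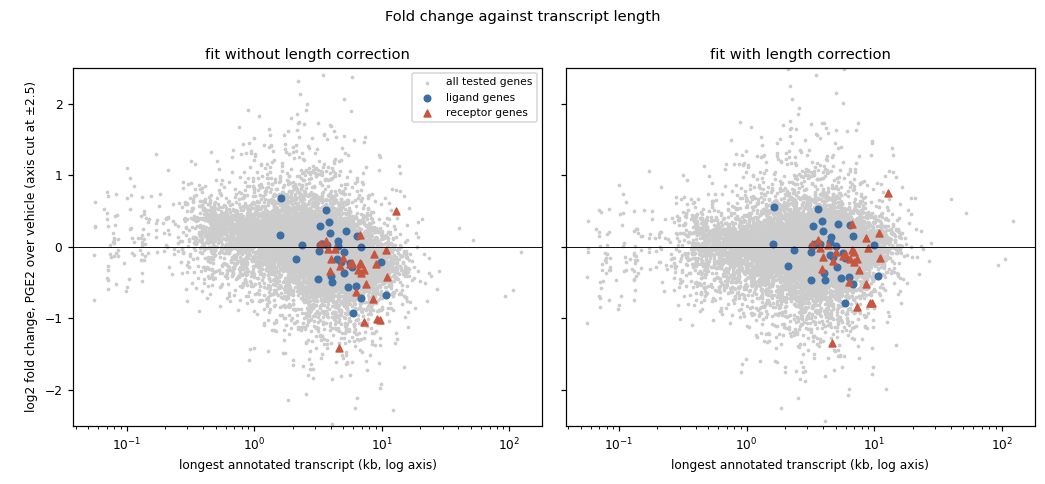
Log2 fold change (PGE2 over vehicle, no replicate block) against the longest annotated transcript in kb (log axis) for all tested genes (grey), ligand genes (circles) and receptor genes (triangles), without (left) and with (right) the length correction. The median of the members moves from -0.21 to -0.08.

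Receptor genes lay lower than ligand genes. Of 28 tested receptor genes 24 had a log2 fold change below 0, with a median of -0.24, and in the paired fit 8 fell and none rose (28.6% and 0%, against 7.51% and 6.91% of all genes). Of 33 ligand genes 18 were below 0, with a median of -0.06, and 4 fell and 2 rose (12.1% and 6.06%). Over all genes 50.2% were below 0. Receptor transcripts were also longer, with medians of 6734.5 and 4482 bases, and with the length correction the medians of the fold changes were -0.14 and 0.01. Block and correction together called 5 receptor genes lower and 1 higher (17.9% and 3.57%), and 4 ligand genes lower and 4 higher (12.1% each), so that the counts lay closer together. The difference between receptors and ligands was not tested.

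Class 3 semaphorins are secreted, and in other tissues they repel axons and restrain endothelial cells. In the paired fit 3 of 7 tested members fell and none rose (all genes: 7.51% and 6.91%). Sema3a, the best studied repellent of the class, was at 65.4, 39.8 and 40.2 CPM in vehicle libraries 1 to 3 and at 38.4, 17.6 and 20.6 CPM in PGE2 libraries 1 to 3. Every PGE2 library lay below every vehicle library, and library 1 was the highest of each group. The log2 fold change was -0.96 ± 0.092 (SE) in the paired fit (edgeR adjusted p = 0.000168) and -0.93 ± 0.344 without the block (0.212), and within pairs it was -0.77, -1.18 and -0.96. The gene (ENSMUSG00000028883) spans 13125414 to 13602565 on chromosome 5 of mm10.

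Sema3c, which binds both neuropilins and attracts some cell types, was the most abundant of the class. It was at 132, 96.7 and 71.7 CPM in vehicle and at 101, 58.3 and 45.7 CPM in PGE2 libraries. The groups overlapped, while each PGE2 library lay below the vehicle library of the same number. Its log2 fold change was -0.59 ± 0.082 in the paired fit (edgeR adjusted p = 0.00149) and -0.56 without the block (0.409), where it ranged from -0.947 without PGE2 library 1 to -0.305 without vehicle library 1. Sema3e, which signals directly through Plxnd1, was at 9.84, 5.58 and 3.31 CPM in vehicle and at 6.14, 2.93 and 2.34 CPM in PGE2 libraries. Both groups again spread widely, with library 1 highest, and the log2 fold change was -0.71 ± 0.140 in the paired fit (0.00984). Without the block it was -0.71 (0.47), from -1.24 without PGE2 library 1 to -0.206 without vehicle library 1. All 3 genes also passed with the length correction, at -0.83, -0.48 and -0.53. Of the other members Sema3d was at -0.50 ± 0.177 and did not pass (edgeR adjusted p = 0.0855, paired), and Sema3b, Sema3f and Sema3g were between 0.01 and 0.05.

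Myogenic genes fell as well. The summed level of 8 myogenic markers was 222, 72.7 and 48.6 CPM in vehicle and 150, 22.6 and 23.0 CPM in PGE2 libraries, so library 1 was highest in both groups, and the PGE2 library was lower in each pair. In the paired fit 5 of the 6 tested markers fell (2 with the length correction), among them the muscle regulators Myod1 and Myog. Of all genes 7.51% fell there (7.96% with the length correction). The muscle stem cell gene Pax7 was at most at 0.0698 CPM and Myf5 at most at 0.116 CPM. Library 1 was also the highest of each group for Sema3a, Sema3c and Sema3e, and this order was not particular to them. It held too for Unc5c, Epha2, Epha5 and Plxna2, which fell in the paired fit, and for Ntn4, which rose. The part of myogenic cells in the values of these members was not tested.

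Semaphorins of classes 4 to 7 are bound to the membrane. Sema5a, whose extracellular part also carries thrombospondin repeats, fell from 33.8, 34.9 and 25.9 CPM in vehicle to 19.6, 18.9 and 21.2 CPM in PGE2 libraries. The PGE2 libraries lay close together and all below the vehicle libraries, and the log2 fold change was -0.66 ± 0.113 (edgeR adjusted p = 0.00495 paired, 0.0853 without the block). With the length correction it was -0.41 ± 0.072 (0.0016 paired), and within pairs it was -0.79, -0.88 and -0.29. Its gene spans 32244810 to 32696341 on chromosome 15 of mm10.

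Sema4c, a ligand of Plxnb2, rose. It was at 42.0, 47.9 and 52.0 CPM in vehicle and at 52.0, 62.5 and 65.8 CPM in PGE2 libraries, and the groups met at the lowest PGE2 and the highest vehicle library. The log2 fold change was 0.34 ± 0.073 (edgeR adjusted p = 0.013 paired, 0.172 without the block), and the within-pair differences were close together, at 0.31, 0.38 and 0.34. It did not pass without pair 2 (0.0902). Over 334 bases its exons lie opposite those of D430040D24Rik, and since the strand setting of the counting is not given, reads of the 2 genes cannot be told apart there. Sema4c lies on chromosome 1 at 36548639 to 36558349 of mm10. The other 5 class 4 members did not pass, with Sema4b at 0.20 ± 0.097 in the paired fit.

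Sema7a, a lipid-anchored semaphorin that can signal through integrins and Plxnc1, was the most abundant semaphorin per length. It was at 51.8, 58.3 and 76.9 CPM in vehicle and at 53.8, 71.3 and 105 CPM in PGE2 libraries, with overlapping groups and the highest value in PGE2 library 3. It did not pass in the paired fit (0.27 ± 0.086, edgeR adjusted p = 0.0639) and passed with the length correction (0.26 ± 0.072, 0.0258). The paired value was 0.163 without pair 3 and 0.371 without pair 1, where it passed (0.0288), and the unpaired value of 0.30 was 0.00596 without PGE2 library 3. None of the 4 class 6 members passed in either fit. Sema6b, the most abundant of them per length, was at 14.7, 14.2 and 12.9 CPM in vehicle and at 14.04, 15.2 and 13.35 CPM in PGE2 libraries. Its log2 fold change (paired) was 0.03 ± 0.094, with groups that overlapped.

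Plexins are large single-pass receptors with a cytoplasmic domain that acts on small GTPases. Of 8 tested, 7 had a log2 fold change below 0, and 3 fell in the paired fit (all genes: 50.2% and 7.51%). Plxnb2 was at 540, 551 and 428 CPM in vehicle and at 418, 396 and 399 CPM in PGE2 libraries. The groups did not overlap, but vehicle library 3 lay close to the PGE2 libraries. The log2 fold change was -0.31 ± 0.090 (edgeR adjusted p = 0.0421 paired), and -0.16 ± 0.061 with the length correction (0.0811), with -0.37, -0.48 and -0.10 within pairs. Plxna3 was at 39.1, 40.6 and 44.0 CPM in vehicle and at 29.96, 31.15 and 34.9 CPM in PGE2 libraries. These groups were well apart, and the 3 pairs gave -0.38, -0.38 and -0.33, so this plexin was lower in pair 3 as well. Plxna3 was at -0.37 ± 0.075 in the paired fit (0.0112) and at -0.20 ± 0.067 with the length correction (0.051), just short of the threshold. Plxna2 was at 39.1, 29.3 and 23.1 CPM in vehicle and at 26.0, 20.3 and 22.1 CPM in PGE2 libraries, with a paired log2 fold change of -0.40 ± 0.106 (0.0342; -0.14 and 0.187 with the length correction), and without vehicle library 1 its unpaired value moved from -0.42 to -0.202. Its groups overlapped through vehicle library 3. Each of these 3 plexins lost the call in the paired fit when pair 1 or pair 2 was left out, with edgeR adjusted p between 0.052 and 0.388.

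Plxna4, the least like the others, was at 3.70, 5.21 and 4.85 CPM in vehicle and at 3.32, 6.17 and 10.0 CPM in PGE2 libraries. Only PGE2 libraries 2 and 3 exceeded the vehicle libraries. It passed as higher with block and length correction together (0.68 ± 0.157, edgeR adjusted p = 0.0106) and not without it (0.41 ± 0.210, 0.218). Plxna1, Plxnb1, Plxnc1 and Plxnd1 did not pass, and were between -0.35 and -0.09 in the paired fit. The neuropilins did not pass either. Nrp1 was at 242, 324 and 264 CPM in vehicle and at 238, 304 and 338 CPM in PGE2 libraries, with a paired log2 fold change of 0.08 ± 0.094. Nrp2 was at -0.20 ± 0.087 (edgeR adjusted p = 0.149), or -0.04 with the length correction.

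**Figure D4:**
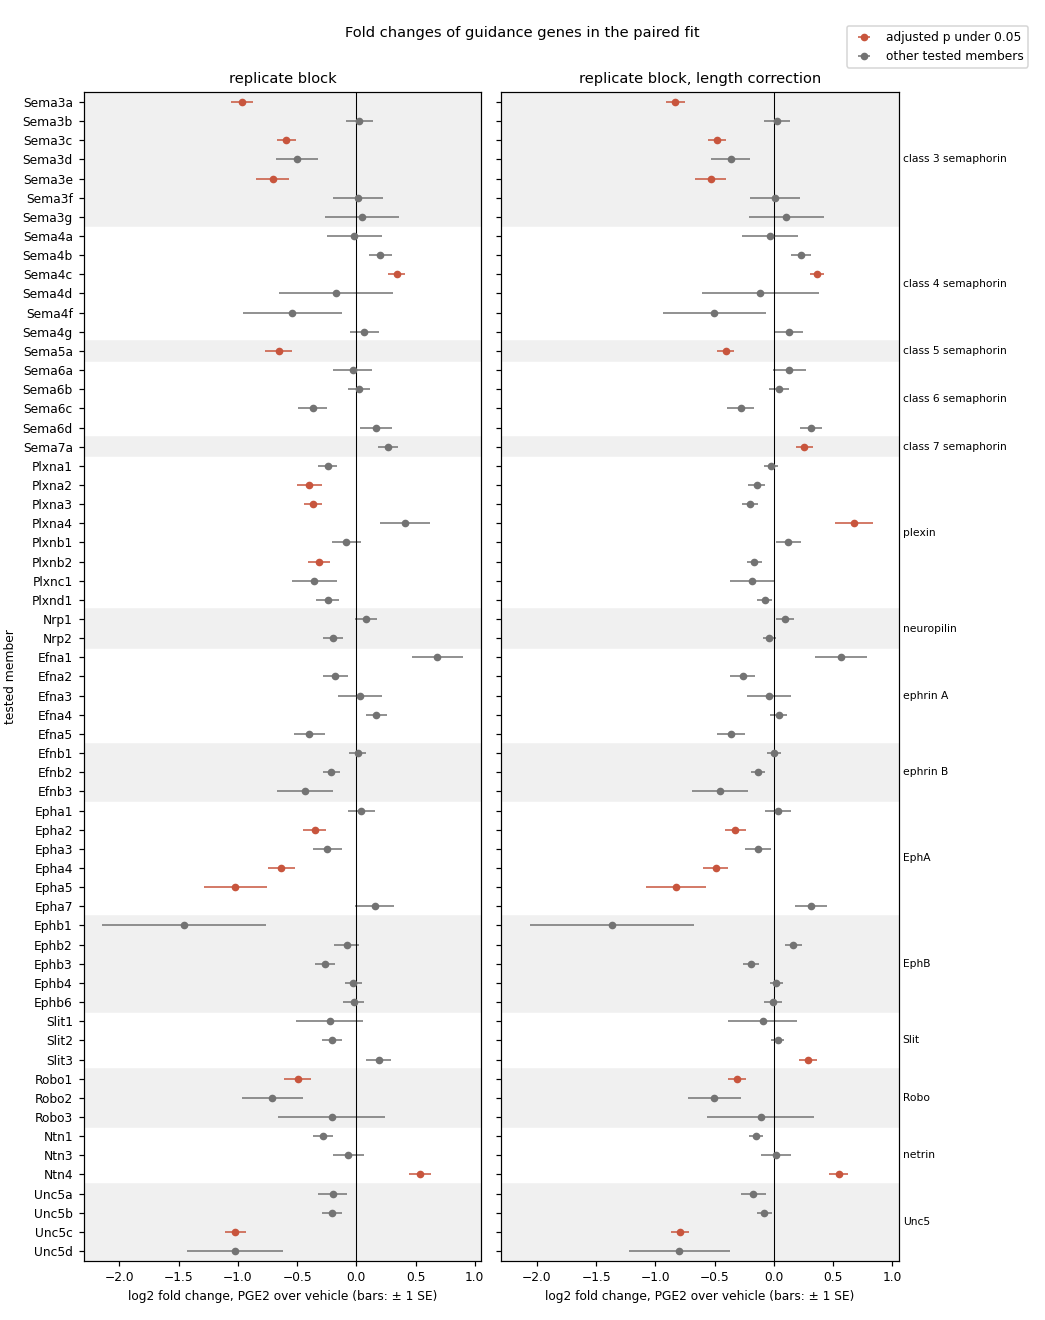
Log2 fold change (PGE2 over vehicle) ± 1 SE of each tested member in the paired fit, without (left) and with (right) the length correction, coloured where the adjusted p was under 0.05. Sema3a, Unc5c and Ntn4 are coloured in both panels, while Plxna2, Plxna3 and Plxnb2 move towards 0 on the right.

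None of the ephrins passed in either paired fit. The most abundant A ephrin, Efna4, was at 19.4, 21.2 and 20.7 CPM in vehicle and at 23.9, 22.9 and 21.9 CPM in PGE2 libraries. All PGE2 libraries were higher, by little, and the log2 fold change was 0.17 ± 0.087 (edgeR adjusted p = 0.212, paired), or 0.04 ± 0.074 with the length correction. Efna1 was at 0.977, 0.899 and 1.25 CPM in vehicle and at 1.53, 1.65 and 1.88 CPM in PGE2 libraries. Its groups did not overlap either, and with counts of only 19 to 85 per library its log2 fold change of 0.69 ± 0.217 did not pass (0.059). Groups of Efna5 were apart in the other direction, at -0.40 ± 0.128 (0.0636). With the length correction Efna5 was at -0.36 ± 0.119 (edgeR adjusted p = 0.0501, paired), just short of the threshold. Efnb1 was at 103, 135 and 134 CPM in vehicle and at 96.3, 137 and 145 CPM in PGE2 libraries. Library 1 was the lowest of each group, and the paired log2 fold change was 0.01 ± 0.072. Efnb2 was at -0.21 ± 0.074 (0.0846) and Efnb3 at -0.43 ± 0.237 (0.239).

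EphA receptors bind mainly A ephrins. Of 6 tested, 3 fell in the paired fit, with and without the length correction (all genes: 7.96% and 7.51%). Epha4, which binds ephrins of both classes, was at 8.19, 11.4 and 10.3 CPM in vehicle and at 5.34, 6.59 and 7.32 CPM in PGE2 libraries. All PGE2 libraries lay below all vehicle libraries, and the log2 fold change was -0.63 ± 0.115 (edgeR adjusted p = 0.00629 paired, 0.136 without the block) or -0.49 ± 0.105 with the length correction. Epha2, known as a receptor of Efna1 in epithelia, was at 34.6, 17.5 and 18.9 CPM in vehicle and at 28.3, 15.5 and 12.6 CPM in PGE2 libraries. Its groups overlapped, library 1 was highest in both as for the myogenic markers, and the paired log2 fold change was -0.35 ± 0.098 (0.0388). It did not pass without pair 1 (0.0802), and without vehicle library 1 the unpaired value was 0.04. Epha5 was at 2.19, 1.75 and 0.763 CPM in vehicle and at 1.05, 0.620 and 0.571 CPM in PGE2 libraries, with overlapping groups. From 21 to 94 counts per library its paired log2 fold change was -1.02 ± 0.265 (0.0298), and the call was lost without pair 1 (0.0962) or pair 2 (0.106). Without vehicle library 1 its unpaired value moved from -1.05 to -0.689. Epha1, Epha3 and Epha7 did not pass and were between -0.25 and 0.16.

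EphB receptors bind B ephrins, and none of the 5 passed in either paired fit. Ephb4, known as the venous partner of Efnb2, varied little, at 102, 99.5 and 100.3 CPM in vehicle and at 92.4, 102 and 102 CPM in PGE2 libraries. Its paired log2 fold change was -0.03 ± 0.071. Ephb3 was at -0.26 ± 0.083 (edgeR adjusted p = 0.0583), and Ephb2 and Ephb6 were at -0.08 and -0.02. Ephb1 had 17, 4 and 12 counts in vehicle and 14, 1 and 0 counts in PGE2 libraries, which is too few to rank.

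Of the Slits, Slit3 was at 208, 267 and 253 CPM in vehicle and at 207, 275 and 369 CPM in PGE2 libraries. Only PGE2 library 3 stood clearly above the vehicle library of the same number, by 0.54 on the log2 scale, against -0.01 and 0.04 in pairs 1 and 2. The paired log2 fold change was 0.19 ± 0.106 (edgeR adjusted p = 0.249), and it passed with the length correction (0.29 ± 0.078, 0.027). Without pair 3 the paired value was 0.00699. Slit2 was at -0.20 ± 0.087 without and 0.03 ± 0.055 with that correction and did not pass in either. The receptor Robo1 was at 36.5, 48.1 and 30.7 CPM in vehicle and at 24.6, 28.0 and 28.0 CPM in PGE2 libraries. Every PGE2 library was below every vehicle library, with vehicle library 3 closest to them. The log2 fold change was -0.49 ± 0.114 in the paired fit (0.0197; 0.162 without the block) and -0.31 ± 0.075 with the length correction (0.0122), and it did not pass without pair 2 (0.0663). Its unpaired value of -0.51 was -0.326 without vehicle library 2. Robo2 was low, with 67 to 94 counts per library, and at -0.71 ± 0.257 it did not pass (0.0895), although its groups did not overlap.

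Among the netrins, Ntn4, a basement membrane component that binds laminin, rose while the classical guidance cue Ntn1 did not. Ntn4 was at 51.8, 38.0 and 30.2 CPM in vehicle and at 63.3, 56.2 and 51.4 CPM in PGE2 libraries. PGE2 library 3 lay just below vehicle library 1, so the groups overlapped. Each PGE2 library exceeded the vehicle library of the same number, by 0.29, 0.57 and 0.77 on the log2 scale. The log2 fold change was 0.54 ± 0.095 (edgeR adjusted p = 0.0055 paired, 0.214 without the block, where 0.51 became 0.338 without vehicle library 3) and 0.55 ± 0.080 with the length correction (0.0006). The gene spans 93640681 to 93747207 on chromosome 10 of mm10. Ntn1 was at 92.3, 94.0 and 72.8 CPM in vehicle and at 73.0, 69.3 and 70.0 CPM in PGE2 libraries. Its vehicle library 3 fell among the PGE2 libraries, and the log2 fold change of -0.28 ± 0.085 did not pass (0.0533).

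All 4 Unc5 receptor genes had a log2 fold change below 0 (all genes: 50.2%). Unc5c, a repulsive netrin receptor with a death domain, was at 32.3, 29.6 and 22.6 CPM in vehicle and at 16.2, 13.2 and 12.1 CPM in PGE2 libraries. The groups were far apart in relation to their spread, and means were 28.2 ± 5.01 and 13.8 ± 2.12 CPM (SD, n = 3 each). Library 1 was the highest of each group, as for the myogenic markers, whose part here was not tested. Its log2 fold change was -1.02 ± 0.089 in the paired fit (edgeR adjusted p = 0.000107) and -1.02 ± 0.163 without the block (0.0611), which was the smallest adjusted p of the members there. DESeq2 gave an adjusted p of 3.92e-06. With the length correction the paired value was -0.79 ± 0.076 (edgeR adjusted p = 1.21e-05), and within pairs it was -0.99, -1.16 and -0.90. The gene (ENSMUSG00000059921) spans 141465216 to 141834924 on chromosome 3 of mm10, and 118 bases of its exons lie opposite Gm15688.

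The most abundant of the family, Unc5b, was at 138, 94.8 and 87.1 CPM in vehicle and at 105, 81.5 and 87.8 CPM in PGE2 libraries. These overlapped, and the paired log2 fold change of -0.20 ± 0.086 did not pass (edgeR adjusted p = 0.134). Unc5d had 5 to 17 counts per library and groups that did not overlap, and at -1.03 ± 0.406 it did not pass (0.116). Unc5a was at -0.20 ± 0.122.

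Promoter sequences were searched because PGE2 receptors of the EP2 and EP4 kinds raise cyclic AMP, whose nuclear factor CREB binds the palindrome TGACGTCA and its shorter core TGACG. The window was the 250 bases before each RefSeq start site (GRCm38.p6), read on both strands, so that the core counts as TGACG or CGTCA and each palindrome also holds the core. RefSeq promoters were given for 59 of the 68 members, in 75 windows. The palindrome was in 1 of these windows and the core in 7, or 1.33% and 9.33%, against 1.55% and 17.8% of all 32851 windows. A match describes letters and is not evidence of binding. Of the 14 members that passed in the paired fit, all with a window, 3 held the core: Epha2, Epha4 and Unc5c, each of which fell. They are shown for that reason, with matches in capitals, Epha2 as the whole window and the others as the 30 bases around the match.
Epha2, chr4:141300971-141301220, plus strand: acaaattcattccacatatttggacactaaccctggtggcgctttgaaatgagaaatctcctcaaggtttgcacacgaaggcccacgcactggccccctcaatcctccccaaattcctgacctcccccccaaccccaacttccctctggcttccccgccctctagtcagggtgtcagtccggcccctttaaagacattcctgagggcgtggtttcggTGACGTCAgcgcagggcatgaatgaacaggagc
Epha4, chr1:77515128-77515157, minus strand: ctggcgggtgtaCGTCAcgggccggtccca
Unc5c, chr3:141465473-141465502, plus strand: gcagccgggagaCGTCAgtggctaggcgca

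The palindrome of Epha2 begins 33 bases before the start site. The cores of Epha4 and Unc5c begin 57 and 79 bases before their RefSeq start sites. The Epha4 window overlapped 1 annotated exon and the Unc5c window 2. The Unc5c window (from 141465314) also lay after the annotated start of its gene at 141465216. The windows of Ntn4 and Sema4c, which rose, held neither sequence, nor did those of Sema3a, Sema3c, Sema3e and Sema5a.

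Partners of these families were taken from a list of 52 genes named as co-receptors, effectors and processing enzymes, of which 50 were tested. Among them are Plxdc1 and Plxdc2, which carry a plexin-like domain and whose part in these pathways was not tested. The list was made with earlier results of these data known. Without the block 1 fell, Plxdc1, a plexin-domain protein of tumour vessels, at -1.70 ± 0.215 (edgeR adjusted p = 0.0402), and none rose. Its adjusted p was 0.0553 with the length correction, and it did not pass in limma-voom or when library 2 or library 3 of either group was left out. With the block 14 fell and none rose, or 28% and 0%, against 7.51% and 6.91% of all genes. With the length correction added 14 fell and 4 rose, or 28% and 8%, against 7.96% and 8.79%. Without pairs 1, 2 or 3 the paired fit had 9, 10 and 25 partners lower, where 4.67%, 4.38% and 17.7% of all genes were lower. All 3 Slit-Robo GTPase-activating proteins, which act below Robo receptors, fell in both paired fits. Srgap2 went from a mean of 98.4 to 68.2 CPM (-0.53), Srgap3 from 63.5 to 42.2 CPM (-0.58) and Srgap1 from 32.8 to 20.5 CPM (-0.66). Their groups did not overlap. Dpysl2, a collapsin response mediator downstream of Sema3a, went from 29.4 to 19.9 CPM (-0.57, edgeR adjusted p = 0.00198 paired), and its abundant relative Dpysl3 was at -0.20 and did not pass (0.175).

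Other partners that fell in both paired fits were Rgma (-0.41) and Rgmb (-0.36), glycolipid-anchored ligands of neogenin, and the receptor tyrosine kinase Met (-0.67), which associates with B plexins. So did L1cam (-1.15), a co-receptor for Sema3a, and Ngef (-0.89), an exchange factor that acts below EphA receptors. L1cam was at 7.61, 2.65 and 1.99 CPM in vehicle and at 3.94, 1.38 and 0.544 CPM in PGE2 libraries, highest in library 1 of each group like the myogenic markers, whose part in it was not tested. The neogenin gene Neo1 was abundant, at 121 and 113 CPM, and did not pass (-0.11, edgeR adjusted p = 0.426). Dcc, the other classical netrin receptor, had 0 counts in all libraries. The actin regulators Enah and Mical2, the exchange factor Tiam1 and Plxdc2 rose with block and length correction together and did not pass with the block alone.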

How the data were processed

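The authors deposited whole-number read counts per gene for 6 libraries. The submitters' processing notes name mm10 as the build. Aligner, counter, strand setting and annotation were not given in the sources used here. Columns were matched to samples by library name. Within groups, chi-square per degree of freedom between libraries was 19.3 to 93.1, far above sampling noise, so each was kept as a replicate.

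The fit used edgeR 4.0.16 in R 4.3.3: filterByExpr (15186 genes kept), TMM scaling, the quasi-likelihood test (robust) of PGE2 against vehicle, and Benjamini-Hochberg adjustment over all genes kept. CPM use the scaled library sizes. Fold changes are log2 PGE2 over vehicle. Standard errors are the size of the log2 fold change divided by the square root of its F statistic. Within-pair differences are of log2 CPM with a prior count of 2.

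Deviations from group means correlated at 0.621, 0.169 and 0.422 for numbers 1 to 3, each above 0.1, so the number was also fitted as a block. This pairing comes from the data, not the labels, and the correlation of PGE2 library 2 was higher with vehicle library 3 (0.252) than with its own number. The length correction added a lowess trend (span 0.3) on the longest GENCODE M21 transcript per library to the offset. It was chosen because earlier results of these data had shown a length trend. The other alternatives were DESeq2 1.42.0, limma-voom (limma 3.58.1), other scalings and filters, and libraries or pairs left out. The fits without and with the block were also run on simulated counts. Those counts held no length trend and no wrong pairing, and the length correction was not run on them. They therefore cannot show how the calls depend on either, and their outcome is not given here.

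Positions are from GENCODE M21 (GRCm38), which held the identifiers of all members but Ntn3, matched by symbol. The members and lists were chosen with earlier results of these data known. Values per library are given for members past the threshold without or with the block, and for the most abundant member per length of each subfamily. Others are named as examples, chosen after their values were seen.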

Additional observations from a re-analysis of the deposited data

How the results depend on the processing

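With the replicate block, counts moved from 0 to 2 members higher, from 0 to 12 members lower, from 1 to 14 partners lower, and over all genes from 32 to 1049 higher and from 20 to 1140 lower. Replicate block and length correction together gave 5 members higher and 9 lower, 4 partners higher and 14 lower, and 1335 genes higher and 1209 lower. The length correction alone left 0 partners lower and 9 genes higher and 6 lower. DESeq2 gave 6 members, 7 partners and 497 genes lower and 435 genes higher, and limma-voom 0 partners and 6 genes lower and 7 higher. With no filter on low counts there were 2 members (Sema5a and Unc5c), 3 partners and 142 genes lower and 143 genes higher. Scaling by library totals gave 2 partners and 34 genes lower. The causes were not tested.

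With single libraries left out of the unblocked fit, 0 to 1 members (Unc5c, without PGE2 library 1) and 0 to 1 partners were lower, none was higher, and over all genes 0 to 85 were higher and 0 to 35 lower. With the replicate block and pairs 1, 2 or 3 left out, 4, 1 and 2 members were higher and 8, 7 and 26 lower, and 9, 10 and 25 partners were lower and 0, 0 and 2 higher. Over all genes these fits called 669, 489 and 2392 higher and 703, 671 and 2705 lower. The median log2 fold change of the members was between -0.251 and -0.147 with libraries or pairs left out, -0.0774 with the length correction and -0.0796 with the block added. Under all 18 settings the 14 members kept their sign, except Epha2 without vehicle library 1.

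Sign changes were otherwise found for members near 0: Efnb1 (-0.0204) and Sema6b (-0.0137) by library totals, and Ephb4 with the length correction (0.0239, with the replicate block 0.0225). With single libraries left out Efnb1 ranged from -0.0993 to 0.188, Epha2 from -0.757 to 0.0405, Ephb4 from -0.0471 to 0.0217, Nrp1 from -0.026 to 0.217, Sema6b from -0.0304 to 0.0715 and Slit3 from -0.0101 to 0.407. With the replicate block and a pair left out Efnb1 ranged from -0.0471 to 0.0704, Ephb4 from -0.0608 to 0.0296, Nrp1 from -0.0649 to 0.169 and Sema6b from -0.00584 to 0.0728. Few counts per library limit Epha5, Robo2, Efna1, Ephb1 and Unc5d.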

Other observations

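Pair 3 differed from the other pairs in many of these genes. Its within-pair log2 difference was the highest of the 3 in 35 of 61 tested members, against 15 for pair 1 and 11 for pair 2, and no test was made of this. The counts of members given here were not taken over all genes, so they cannot be called particular to these families. Median differences in pairs 1 to 3 were -0.25, -0.21 and -0.06 for the members, and -0.005, 0.01 and -0.0009 for all genes. There were 12 members lower in pairs 1 and 2 and higher in pair 3, 7 of them receptors: Epha7, Ephb2, Nrp1, Nrp2, Plxnb1, Plxnd1 and Unc5b. Epha7 was at -0.07, -0.16 and 0.66 in pairs 1 to 3, the ligand Sema6d at -0.10, -0.02 and 0.63, and Nrp1 at -0.02, -0.09 and 0.36. Pair 3 gave the lowest difference in 11 members, such as Epha2 (-0.29, -0.18 and -0.58). The slope on transcript length also differed for pair 3, as given above. Its part in these values was not tested.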
